A study of Cladosporium europaeum with 50 samples.

Results

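Glutathione is a small thiol peptide that cells use against oxidants and to tag reactive compounds. In the fungus Cladosporium europaeum under polychlorinated biphenyls (PCB), 920 genes were listed as changed. Among them were 7 genes annotated with glutathione or with a glutathione S-transferase domain. Of these 7, 4 were chosen because their annotation contains the word glutathione or the name GstA. The other 3 (ptg000019l.530, ptg000009l.39 and ptg000018l.403) are annotated only as proteins with a GST N-terminal domain, GST being the abbreviation of glutathione S-transferase, and were taken by their identifiers. The 7 are 5 transferase or GST domain annotations, 1 glutathione hydrolase and 1 protein with a glutathione synthetase-like domain.

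The strain, F32 from soil with a history of PCB pollution, was grown as mycelium in liquid mineral medium with 5 g/L glucose, which every group received. Groups held 6 mg/L of PCB52, PCB101, PCB153 or PCB180, or no PCB as the control, for 24 h or 96 h. The 10 groups had 5 replicates each, 50 samples in all, and polyadenylated RNA was sequenced. The congeners carry increasing numbers of chlorine atoms, with PCB52 a tetra-, PCB101 a penta-, PCB153 a hexa- and PCB180 a heptachlorobiphenyl. All groups used 1 strain. Since the labels leave it unsaid whether each replicate was its own culture, the p-values reflect the variation among these samples, which may be technical.

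Each value is an estimate by the authors for one congener against its time-matched control, and only listed genes have values. Genes listed for a congener had an adjusted p below 0.05 and changed by a log2 fold change of 1 or more in size, and "rose" and "fell" below mean listed with that sign. Levels in single samples were not analysed here, so the spread is given by the authors' standard error (SE) and by 95% intervals computed from it. Library depth is unknown, and the mean normalized count, a single value per gene that is not corrected for gene length, is given as the count behind each estimate. The mycelium is 1 tissue, but less RNA of a gene per cell and fewer cells in the state that expresses it cannot be told apart in such bulk samples.

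Glutathione S-transferases join the sulfur of glutathione to electrophilic compounds, many of which are first made reactive by an oxidizing enzyme such as a cytochrome P450. The conjugates can then be moved out of the cytosol by ABC transporters or broken down, a path that begins with glutathione hydrolase, which removes the gamma-glutamyl group. Glutathione itself is made from glutamate, cysteine and glycine by a pair of ATP-dependent ligases, the second of which is glutathione synthetase. In fungi these enzymes are known for protection against metals, oxidants and foreign compounds.

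Under PCB180 at 96 h, 5 glutathione genes were listed, all of them transferase or GST domain annotations, and 4 of the 5 fell. In this comparison 7.26% of the 11313 genes tested were listed, 4.59% as genes that rose and 2.67% as genes that fell. How many glutathione genes of this genome were tested and not listed is not known from the rows used here, so the 5 listed members cannot be set against that share. Their median log2 fold change was -1.41, while the median over all 821 listed genes was 1.23 and 36.8% of these fell. By the annotation words alone 2 of the 5 were left, GstA and ptg000015l.134, and both fell.

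The largest fall among them was in the GST N-terminal domain protein ptg000019l.530. Its log2 fold change under PCB180 was -1.76 ± 0.26 (SE) with an adjusted p of 3.67e-08 by the authors' deposited table. This placed the transcript in PCB180 mycelium at 29.6% of the control level, with a 95% interval from 20.6% to 42.4%. The gene had the rank 10 by p among all 11313 genes tested and the rank 31 by size among the 302 genes that fell. The GST N-terminal domain has a thioredoxin-like fold that binds glutathione. It also occurs in proteins that are not transferases, so the annotation names a domain and not an activity.

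A further GST N-terminal domain protein, ptg000009l.39, fell by 1.47 ± 0.31 (SE) on the log2 scale, with an adjusted p of 0.000242 by the authors' deposited table. It stood at 36.2% of the control level (95% interval 23.9% to 54.9%). Its mean normalized count was 50.1, the lowest of the 7 genes.

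The gene annotated GstA (ptg000010l.367) carries the name of a transferase that in Aspergillus nidulans contributes to resistance to foreign compounds and metals. In PCB180 mycelium it stood at 37.6% of the control level, with a 95% interval from 21.8% to 65.0%. Its log2 fold change of -1.41 ± 0.40 (SE) had an adjusted p of 0.011 by the authors' deposited table. The remaining transferase that fell, ptg000015l.134, had the highest mean normalized count of the 7 genes, 4533. It fell by 1.12 ± 0.32 (SE) on the log2 scale, to 46.0% of the control level, with an adjusted p of 0.0099 by the authors' deposited table. The intervals of all 4 glutathione genes that fell overlapped each other.

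The GST N-terminal domain protein ptg000018l.403 went the other way. It rose by 2.29 ± 0.61 (SE) on the log2 scale, a 4.89-fold higher level in PCB180 mycelium with a 95% interval from 2.13-fold to 11.2-fold, and the adjusted p was 0.00608 in the authors' deposited table. Its SE was the largest of the 7 genes, at a mean normalized count of 138. It took the rank 68 by size among the 519 genes that rose under PCB180.

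**Figure D1:**
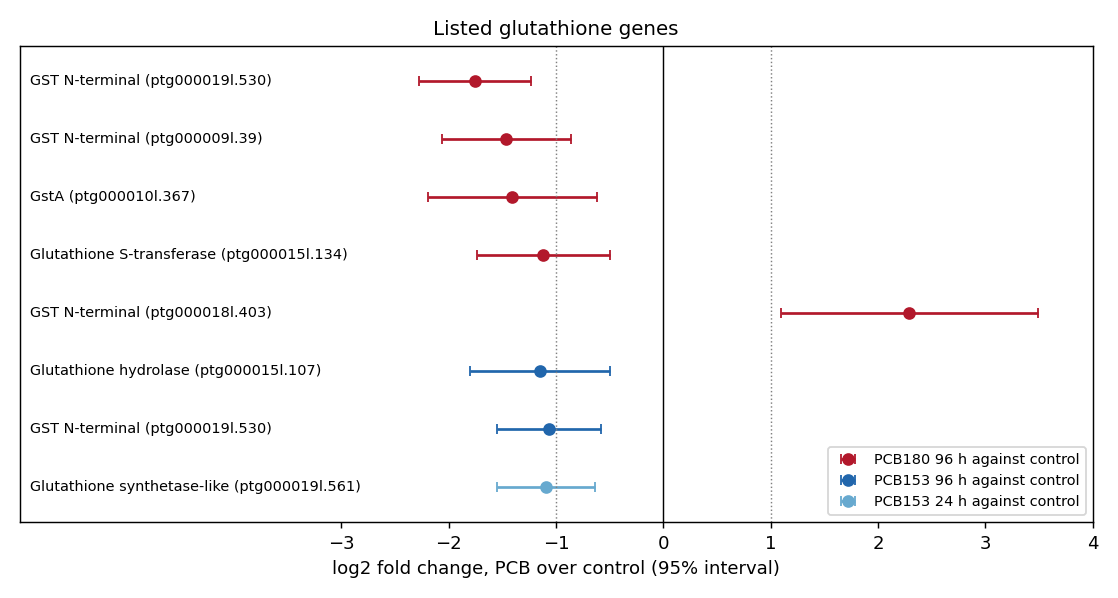
Log2 fold change of each listed glutathione gene, PCB over control (horizontal axis), with 95% intervals from the authors' standard errors; colours mark the comparison and dotted lines an absolute log2 fold change of 1. Of the 8 estimates 7 lie below 0, and ptg000018l.403 at 2.29 is the only one above it.

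Under PCB153 at 96 h, 2 glutathione genes were listed and both fell, in a comparison in which 2.4% of the 10874 genes tested were listed, 1.82% as genes that rose and 0.579% as genes that fell. The first was again the domain protein ptg000019l.530, with a log2 fold change of -1.07 ± 0.25 (SE) with an adjusted p of 0.00298 by the authors' deposited table. It stood at 47.7% of the control level under PCB153 (95% interval 34.1% to 66.7%). The second was glutathione hydrolase (ptg000015l.107), also called gamma-glutamyltransferase, which fell by 1.15 ± 0.33 (SE) on the log2 scale, with an adjusted p of 0.0268 by the authors' deposited table. The hydrolase transcript stood at 44.9% of the control level (95% interval 28.6% to 70.6%), at a mean normalized count of 442. The median of the 63 genes that fell under PCB153 was a log2 fold change of -1.19. By size of the fall the hydrolase had the rank 38 among these 63 and ptg000019l.530 the rank 51, among the smaller falls.

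**Figure D2:**
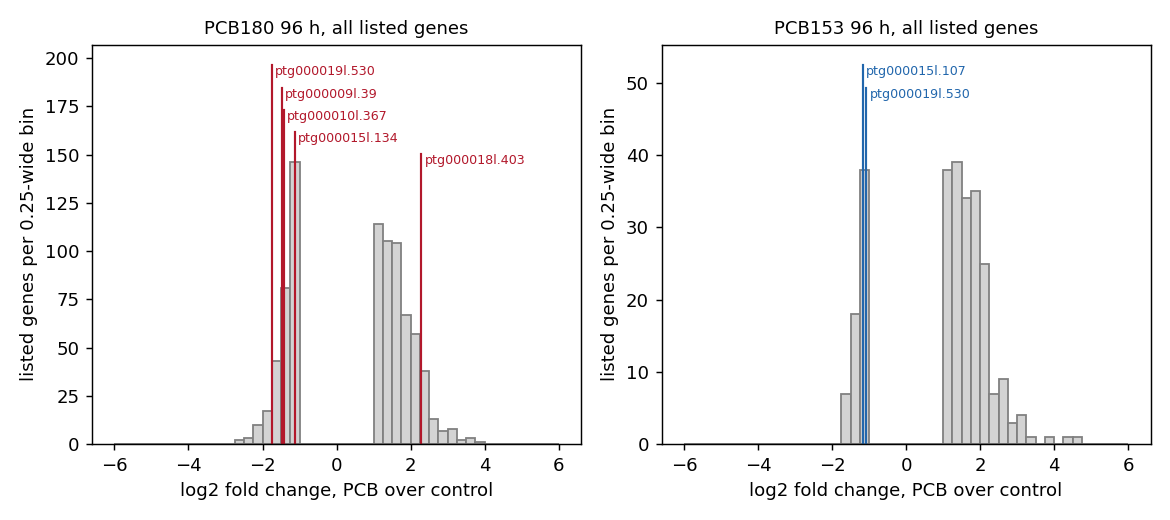
Histograms of the log2 fold change (horizontal axis, PCB over control) of all listed genes under PCB180 and PCB153 at 96 h, as genes per bin (vertical axis), with lines at the glutathione genes. The empty middle is the listing threshold of 1. In the PCB180 panel the 4 glutathione genes that fell lie between -1.76 and -1.12, and ptg000018l.403 lies at 2.29 among the 519 genes that rose.

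After 24 h, 1 of the 7 genes was listed, for PCB153, where 0.053% of the 11313 genes tested were listed and 0.0177% were listed as genes that fell. The gene ptg000019l.561, which encodes a protein like the ATP-binding domain of glutathione synthetase, fell by 1.09 ± 0.23 (SE) on the log2 scale, with an adjusted p of 0.0107 by the authors' deposited table. It stood at 46.9% of the control level in PCB153 mycelium (95% interval 34.2% to 64.4%), at a mean normalized count of 97.6. The ATP-binding domain named in the annotation belongs to a fold that other ligases share, so the annotation does not say that the protein makes glutathione. This gene was not among the genes listed for any congener at 96 h.

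Of the 7 genes, 1 was listed in 2 comparisons and 6 were listed in 1. With 7 genes and 7 congener comparisons that have rows, 8 of 49 combinations were filled, and PCB52 and PCB101 had 0 glutathione genes. Listed genes made up 0.00884% of those tested for PCB52 at either hour, 0.0796% for PCB101 at 96 h and 0.0177% for PCB180 at 24 h, where 0 glutathione genes were listed as well. PCB101 at 24 h has no rows among those used here. A combination without a row does not show an unchanged gene, because the listing bar differed between comparisons. At 96 h the smallest absolute score (log2 fold change over SE) of a listed gene was 2.8 under PCB180 and 3.13 under PCB153. It was 4.12 under PCB101 at 96 h and 4.17 under PCB153 at 24 h.

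Between PCB180 and PCB153 the SE of a gene hardly differed at 96 h, since over the 171 genes listed for both, the ratio of the PCB180 to the PCB153 value ran from 1.03 to 1.08. With the SE it had under PCB180, ptg000009l.39 would have been listed for PCB153 from an absolute log2 fold change of 1 on, while its value for PCB180 was -1.47. The same bar of 1 held for ptg000015l.134 under PCB153, and for glutathione hydrolase under PCB180. For GstA (ptg000010l.367) the bar under PCB153 was 1.26, close to its PCB180 value of -1.41. For ptg000018l.403 it was 1.91, so a rise under PCB153 of up to about that log2 fold change would have gone unlisted. All 7 genes had a mean normalized count above 10.6, the lowest count listed for PCB153, but a gene the authors' test left out for other reasons would also be unlisted.

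The domain protein ptg000019l.530 was the only one of the 7 with a value for both congeners at 96 h, and these 2 comparisons share the 96 h control. Its log2 fold change was -1.76 for PCB180 and -1.07 for PCB153, a difference of -0.69 ± 0.26 (SE) with a 95% interval from -1.19 to -0.19. Falls were larger under PCB180 for 34 of the 49 genes that fell under both congeners, with a median difference of -0.25. The difference had an unadjusted p of 0.00731 in a two-sided normal test with a correlation of 0.5 between the comparisons, the rank 6 among the 171 genes tested. Its Benjamini-Hochberg adjusted p over these genes was 0.208, which misses the threshold but does not show that the 2 congeners act alike on this gene. Of the 171 genes, 18 had an unadjusted p under 0.05 and 0 an adjusted p under 0.05. The authors' direct comparison of PCB180 with PCB153 at 96 h held 1 row, 0.00884% of the genes tested, for L-galactonate dehydratase (ptg000017l.227), and 0 of the glutathione genes.

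By the pair of log2 fold changes at 96 h, 5 listed genes lay nearest to ptg000019l.530, and this choice fixes that they fell under both congeners. The nearest was ptg000027l.475, which has no annotation, at a distance of 0.0856 on the log2 scale, with -1.69 for PCB180 and -1.12 for PCB153. Next came a putative cell signaling protein (ptg000016l.335) at a distance of 0.144 and a heterokaryon incompatibility domain protein (ptg000021l.534) at 0.195. An RRM domain protein (ptg000003l.539) lay at 0.2 and a SigF-like NTF2-like domain protein (ptg000016l.571) at 0.234. This likeness rests on 2 values per gene that share their control samples. The RRM domain protein was also listed at 96 h for PCB52 (-1.10) and PCB101 (-1.14), where ptg000019l.530 was not listed.

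The gene number that directly follows ptg000019l.530 belongs to a putative P450 monooxygenase (ptg000019l.531), an enzyme type that can make electrophiles from inert compounds. This P450 fell by 1.42 ± 0.37 (SE) under PCB180 and by 1.26 ± 0.35 (SE) under PCB153 on the log2 scale by the authors' deposited table. The adjusted p of the P450 was 0.00464 for PCB180 and 0.0195 for PCB153 in the authors' deposited table. The transferase-domain gene and the P450 gene thus fell side by side under both congeners. Of the 302 genes that fell under PCB180, 33 had a directly adjoining gene number that also fell, which is 10.9%. For PCB153 this held for 4 of the 63 genes that fell, or 6.35%. Both shares count ptg000019l.530 and ptg000019l.531 themselves. The P450's own difference between PCB180 and PCB153 was -0.17, with a 95% interval from -0.88 to 0.54 and an adjusted p of 0.997 in the same two-sided normal test.

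Genes numbered close to the rising ptg000018l.403 rose as well under PCB180. A RelA/SpoT domain protein (ptg000018l.407) rose by 2.67 ± 0.61 (SE) on the log2 scale by the authors' deposited table. An ankyrin repeat protein (ptg000018l.408) rose by 1.72 ± 0.40 and a major facilitator transporter (ptg000018l.409), of a family of carriers for small molecules, by 1.59 ± 0.29 (SE) in the authors' deposited table. These 4 genes lie within 6 gene numbers of each other. Having any listed neighbour this close was common, since under PCB180 498 of the 821 listed genes (60.7%) had a listed gene within 6 gene numbers. Of the 821, 346 (42.1%) had one that changed in the same direction. Of the 519 genes that rose, 17 (3.28%) had at least 3 others that rose within 6 gene numbers, the 4 genes here among them. The window of 6 and the count of 3 match the extent of this run, while neighbours were searched within 10 gene numbers. This share therefore does not measure how unusual the run is.

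**Figure D3:**
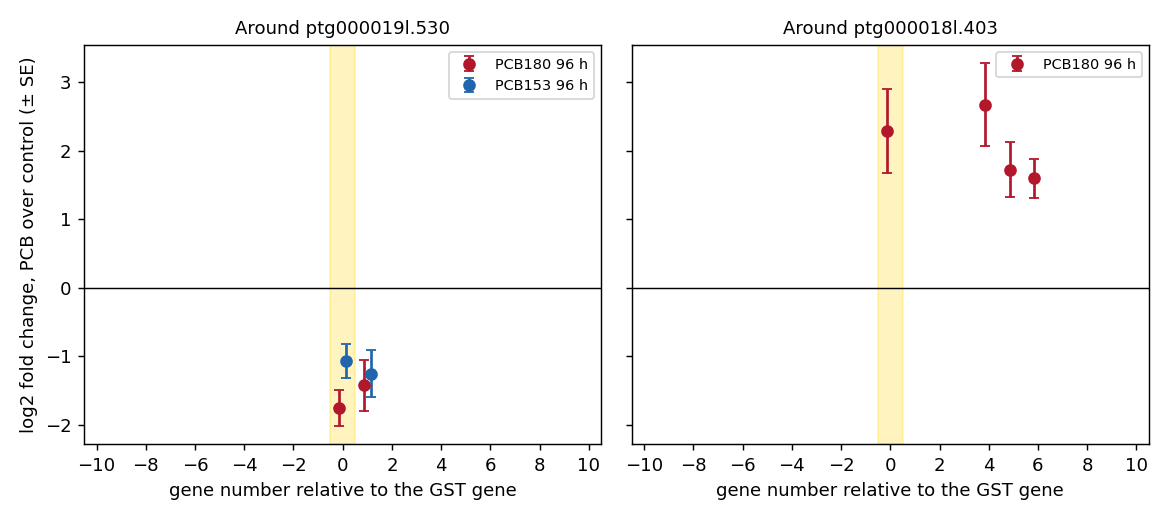
Log2 fold change (vertical axis, PCB over control, bars ± SE) of the listed genes within 10 gene numbers of ptg000019l.530 and of ptg000018l.403 (horizontal axis, gene number relative to the shaded GST gene); gene numbers without a point were not listed. The pair on the left fell under PCB180 and PCB153, and the 4 genes on the right rose under PCB180.

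The other glutathione genes had scattered listed neighbours. Within 10 gene numbers, GstA (ptg000010l.367) had an F-box protein (ptg000010l.365) that rose by 1.49 ± 0.44 (SE) under PCB180, and the unannotated ptg000010l.358, which rose by 2.33 ± 0.61 under PCB180 and 2.77 ± 0.58 under PCB153, in the authors' deposited table. Next to the synthetase-like gene ptg000019l.561, a DUF3824 domain protein (ptg000019l.560) fell by 1.34 ± 0.45 (SE) on the log2 scale under PCB180 and an archaeal flagellin N-terminal-like domain protein (ptg000019l.555) rose by 1.27 ± 0.34, in the authors' deposited table. An endo-mannosidase (ptg000009l.29) near ptg000009l.39 rose by 1.33 ± 0.47 (SE), and an acyltransferase domain protein (ptg000015l.99) near glutathione hydrolase rose by 1.18 ± 0.42, both under PCB180 in the authors' deposited table. L-serine ammonia-lyase (ptg000015l.127), which deaminates serine to pyruvate, is numbered near the transferase ptg000015l.134 and rose by 1.5 ± 0.28 (SE) under PCB180 in the authors' deposited table.

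The related lists are described by counts of listed genes, to be read against the 519 genes that rose and 302 that fell under PCB180 and the 198 that rose and 63 that fell under PCB153, so that 36.8% and 24.1% of all listed genes fell. In the sulfur amino acid and sulfate list, 2 genes rose and 1 fell under PCB180, and 2 rose and 0 fell under PCB153, and the number of such genes tested is not known. A protein with the C-terminal domain of cobalamin-independent methionine synthase (ptg000002l.554), an enzyme that forms methionine from homocysteine, rose by 1.59 ± 0.32 (SE) under PCB180 and by 1.03 ± 0.30 under PCB153 on the log2 scale by the authors' deposited table. Cysteine synthase 2 (ptg000009l.873), named for joining sulfide to an activated serine, fell by 1.53 ± 0.46 (SE) under PCB180, with an adjusted p of 0.019 by the authors' deposited table. The other 2 members were matched by a word and do not make sulfur amino acids. Molybdenum cofactor sulfurase (ptg000015l.208), which activates molybdenum enzymes, rose by 1.2 ± 0.30 (SE) under PCB153, and an alpha-ketoglutarate-dependent sulfonate dioxygenase (ptg000010l.24) rose by 1.58 ± 0.41 under PCB180, in the authors' deposited table.

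In the glutamate and amino acid precursor list, 7 genes rose and 8 fell under PCB180, and 0 rose and 2 fell under PCB153, where glutathione hydrolase itself was 1 of the genes that fell. Over all listed genes 302 of 821 fell under PCB180 and 63 of 261 under PCB153. Many matched by the word serine alone and are hydrolases, kinases or phosphatase subunits that do not supply glutathione. The 4 with the largest change were a serine hydrolase domain protein (ptg000006l.417, 2.01 ± 0.56 SE), serine carboxypeptidase S28 (ptg000027l.510, -1.54 ± 0.30), cysteine synthase 2 and phosphatidylserine synthase (ptg000006l.230, -1.51 ± 0.26), as log2 fold changes under PCB180 in the authors' deposited table. Chosen after their values were seen, the members that act on these amino acids included serine hydroxymethyltransferase (ptg000015l.470), which interconverts serine and glycine and rose by 1.22 ± 0.28 (SE) under PCB180 in the authors' deposited table. Glutamate decarboxylase (ptg000002l.381), which consumes glutamate, fell by 1.04 ± 0.35 (SE) on the log2 scale under PCB180 in the authors' deposited table. L-serine ammonia-lyase (ptg000015l.127, 1.5 ± 0.28 SE), dimethylglycine oxidase (ptg000010l.316, 1.18 ± 0.41) and a proline breakdown fusion protein (ptg000019l.471, 1.31 ± 0.43) of this list also rose under PCB180. These are log2 fold changes in the authors' deposited table, from a list in which 8 genes fell.

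In the thiol and peroxide protection list, 1 gene rose and 1 fell under PCB180, and 0 rose and 1 fell under PCB153. With so few members no share can be set beside the 36.8% and 24.1% of all listed genes that fell. A thioredoxin domain protein (ptg000002l.457), of a family that reduces disulfides alongside glutathione, fell by 1.40 ± 0.30 (SE) under PCB180 and by 1.01 ± 0.28 under PCB153 on the log2 scale by the authors' deposited table. The word match left out ptg000002l.302, annotated with a TRX domain, TRX being an abbreviation of thioredoxin. That gene rose under both PCB180 and PCB153 at 96 h and is not in the counts above. A catalase domain protein (ptg000019l.156), of a family that splits hydrogen peroxide, rose by 1.77 ± 0.56 (SE) under PCB180 in the authors' deposited table. Annotations with the words glutaredoxin, peroxiredoxin or superoxide dismutase were not among the listed genes.

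In the first-phase oxidation and hydrolysis list, 7 genes rose and 4 fell under PCB180, 6 rose and 2 fell under PCB153, and 1 rose and 0 fell under PCB101 at 96 h. These splits were close to those of all listed genes, of which 519 rose and 302 fell under PCB180 and 198 rose and 63 fell under PCB153. The medians of its listed members were 1.42 for PCB180 and 1.61 for PCB153, as log2 fold changes, beside medians of 1.23 and 1.44 over all listed genes of the same comparisons. Phenol 2-monooxygenase (ptg000007l.259), which hydroxylates phenol, rose by 2.33 ± 0.53 (SE) under PCB180 and by 3.49 ± 0.50 under PCB153, per the authors' deposited table. The epoxide hydrolase domain protein ptg000010l.624, of a family that opens epoxides with water and so acts on compounds that transferases can also take, rose by 2.31 ± 0.34 (SE) under PCB180 and by 1.5 ± 0.32 under PCB153, per the authors' deposited table. The P450 ptg000010l.658 rose by 2.18 ± 0.59 (SE) under PCB180, and benzoate 4-monooxygenase (ptg000027l.308) rose by 1.43 ± 0.29 under PCB180 and by 2.11 ± 0.27 under PCB153, per the authors' deposited table. A further P450 of the list, ptg000018l.79, fell by 2.02 ± 0.48 (SE) on the log2 scale under PCB180, per the authors' deposited table; it stands outside the 4 largest and was chosen after its value was seen. The list also holds squalene monooxygenase and L-ornithine monooxygenase, which make sterols and siderophores.

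For conjugate transport, 1 ABC transporter rose (ptg000018l.492, 1.71 ± 0.52 SE) and 1 fell (ptg000018l.86, -1.04 ± 0.26), both as log2 fold changes under PCB180 in the authors' deposited table. For aldehyde detoxification, an aldehyde dehydrogenase domain protein (ptg000027l.443) fell by 1.19 ± 0.34 (SE) on the log2 scale under PCB180 in the authors' deposited table. The other match of this list was a fusion protein of proline breakdown (ptg000019l.471), which rose by 1.31 ± 0.43 (SE) under PCB180 in the authors' deposited table. Neither list had a gene under PCB153.

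**Figure D4:**
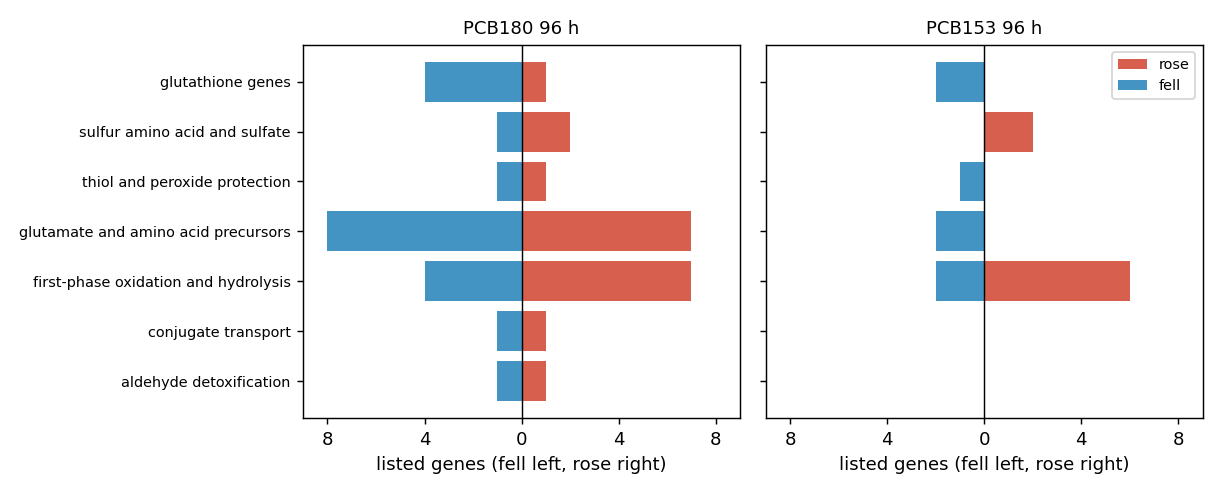
Number of listed genes that fell (bars to the left) and rose (bars to the right) at 96 h among the glutathione genes and the 6 related lists, under PCB180 and PCB153. Glutathione genes split 1 up and 4 down under PCB180 and 0 up and 2 down under PCB153, and first-phase oxidation and hydrolysis split 7 up and 4 down, and 6 up and 2 down; of all listed genes 36.8% fell under PCB180 and 24.1% under PCB153.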

How the data were processed

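Mycelial RNA was isolated with TRIzol for polyA libraries, per the labels' protocols. Not given in the sources used here were aligner, counter, genome build and test program. The authors deposited tables of comparisons with, per the file headers, a log2 fold change and its SE, a score (log2 fold change over SE), p-values before and after adjustment, and the mean of the normalized counts, a signal. The deposited score and p-value were checked against the normal distribution on all 1102 rows. A shorter table, rounded to 2 decimals, gave the annotation.

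The number of genes tested came from the ratio of p-value to adjusted p-value (whole ranks, tolerance 1e-06). Intervals of 95% were computed from the SE. The difference test took a correlation of 0.5 from the shared control and was adjusted over all genes listed for both congeners. Both steps were tested on simulated data. The simulated comparisons had the correlation of 0.5 built in and their genes were not selected by listing. The simulation therefore cannot show whether 0.5 holds for the genes tested here. The 6 related lists were matched by annotation words, and up to 4 genes of each were named, besides all 7 glutathione genes, listed genes within 10 gene numbers and the 5 nearest genes. Members and lists were chosen with earlier results of these data known. Scripts ran in Python 3.11.15 with scipy 1.17.1. No genome or protein sequence was used, so positions beyond gene identifiers are not reported.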

Additional observations from a re-analysis of the deposited data

How the results depend on the processing

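The listed glutathione genes under PCB180 numbered 5 at 96 h and 4 at an adjusted p under 0.01 or without the lowest 25% of genes by mean count. They numbered 2 at an adjusted p under 0.001, 2 from a log2 fold change of 1.5 in size and 2 by the annotation words alone, the last chosen after seeing the data. Under PCB153 at 96 h the 2 genes became 1 at an adjusted p under 0.01 or by the words alone. They also became 1 among transferase and GST domain annotations alone. They became 0 at an adjusted p under 0.001 or from a log2 fold change of 1.5 in size. The 1 gene under PCB153 at 24 h became 0 at an adjusted p under 0.01 or 0.001 and at the larger fold change. It also became 0 among transferase and GST domain annotations alone. The difference of -0.69 between PCB180 and PCB153 for ptg000019l.530 had a p of 0.00731 without adjustment, and its adjusted p was 0.208 at a correlation of 0.5, 0.809 at 0.25 and 0.998 at 0. It was 0.204 with the log2 fold changes of the rounded table. Matching by the first annotation alone changed none of the 3 counts, but the genes taken by their identifiers were kept in this setting whatever their annotation. No paired analysis was possible because the tables hold comparisons with no values per sample, and for the same reason no replicate was left out in turn. Depth per sample is unknown, so it cannot be said which unlisted genes were measured too thinly.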
